A study of Homo sapiens with 6 samples.

Results

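Pigmentation and melanosome biogenesis genes were examined in SK-MEL-28, an established human melanoma cell line, as a fixed list of 46 symbols among the 60504 genes of the RNA-seq count table. All 46 symbols were found in the table, and 45 of them had enough counts to be tested. ASIP, which encodes a secreted antagonist of the melanocortin receptor, had at most 5 counts in any library and was not tested. Cells had been transfected with an empty vector (EV) plasmid or with a plasmid for the histone deacetylase HDAC8, and both populations were kept in hygromycin and harvested at 70% confluence without a further treatment. Each group comprised 3 libraries, numbered by the labels as biological replicates 1 to 3. No source used here states whether the replicates came from separate transfections, so the p-values measure only the spread between these libraries.

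Melanosomes are lysosome-related organelles in which melanocytes and pigmented melanoma cells make and store melanin. The transcription factor MITF drives many of their genes, PMEL fibrils form the internal scaffold, and the enzymes TYR, TYRP1 and DCT convert tyrosine to melanin on it. Transporters and channels set the ion content and pH of the organelle. BLOC complexes, adaptor complexes and the small GTPases RAB32 and RAB38 deliver cargo to it, while RAB27A, MLPH and MYO5A tie mature melanosomes to actin. Loss of single genes of this set causes albinism, or the Hermansky-Pudlak, Griscelli and Chediak-Higashi syndromes.

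The introduced gene was checked first. HDAC8 was at 16.6, 15.2 and 11.8 CPM (counts scaled to library size) in the EV libraries and at 14.2, 15.2 and 13.5 CPM in the libraries labelled HDAC8. These ranges overlapped, and the log2 fold change was -0.024 (SE, standard error, 0.13; adjusted p = 0.924, edgeR). RNA levels therefore did not check the group labels, and every direction below is that of the libraries labelled HDAC8 over the libraries labelled EV. Library totals lay between 20850018 and 29822917 counts, and mitochondrial genes took 1.18% to 1.54% of them. All 7 melanoma lineage markers were above 1 CPM, and their summed level was 3004 to 3204 CPM in the EV libraries and 3087 to 3342 CPM in the HDAC8 libraries. Summed fibroblast markers were at 42.4 to 44.7 CPM in the EV libraries and 53.9 to 58.7 CPM in the HDAC8 libraries, mostly from LUM, which was higher (log2 fold change 0.44, adjusted p = 0.000615). COL1A1 and PDGFRB, the other tested fibroblast markers, were not called, at -0.50 and -0.15, and COL3A1 and DCN stayed below 1 CPM. Keratinocyte markers summed to at most 10.1 CPM and leukocyte markers to at most 6.45 CPM, with KRT1 and CD3E at 0 counts. Endothelial markers summed to 2.76 to 3.70 CPM. The part of these small differences in the results below was not tested, and in bulk RNA fewer cells of a type and less RNA per cell cannot be told apart.

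The pigmentation genes did not form a single block of higher or lower RNA. Of the 45 tested, 9 were called higher and 10 called lower in HDAC8-labelled libraries (adjusted p below 0.05), and 26 did not pass the test. The higher genes were 20% of those tested, against 11.1% of all 16195 tested genes, and the lower genes were 22.2%, against 11.7% of all tested genes. When a log2 fold change of 0.58 or more in size was also required, OCA2, TYRP1 and RAB32 were higher (3 of 45, 6.67%, background 4.07%) and DCT, TRPM1, SLC24A4 and MLPH were lower (4 of 45, 8.89%, background 3.45%). The median log2 fold change was -0.010 over the 45 genes and 0.0091 over all tested genes, and 20 of the 45 values were positive. Changes were also small for most genes, since 34 of 45 had an absolute log2 fold change below 0.3. In 25 of the 45 genes, or 55.6%, the 2 groups of libraries did not overlap, with 12 genes above and 13 below, whereas 38.0% of all tested genes had groups without overlap. The 45 genes also had a higher median level, 69.8 CPM against 18.8 CPM over all tested genes. The part of level in these shares was not tested.

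**Figure D1:**
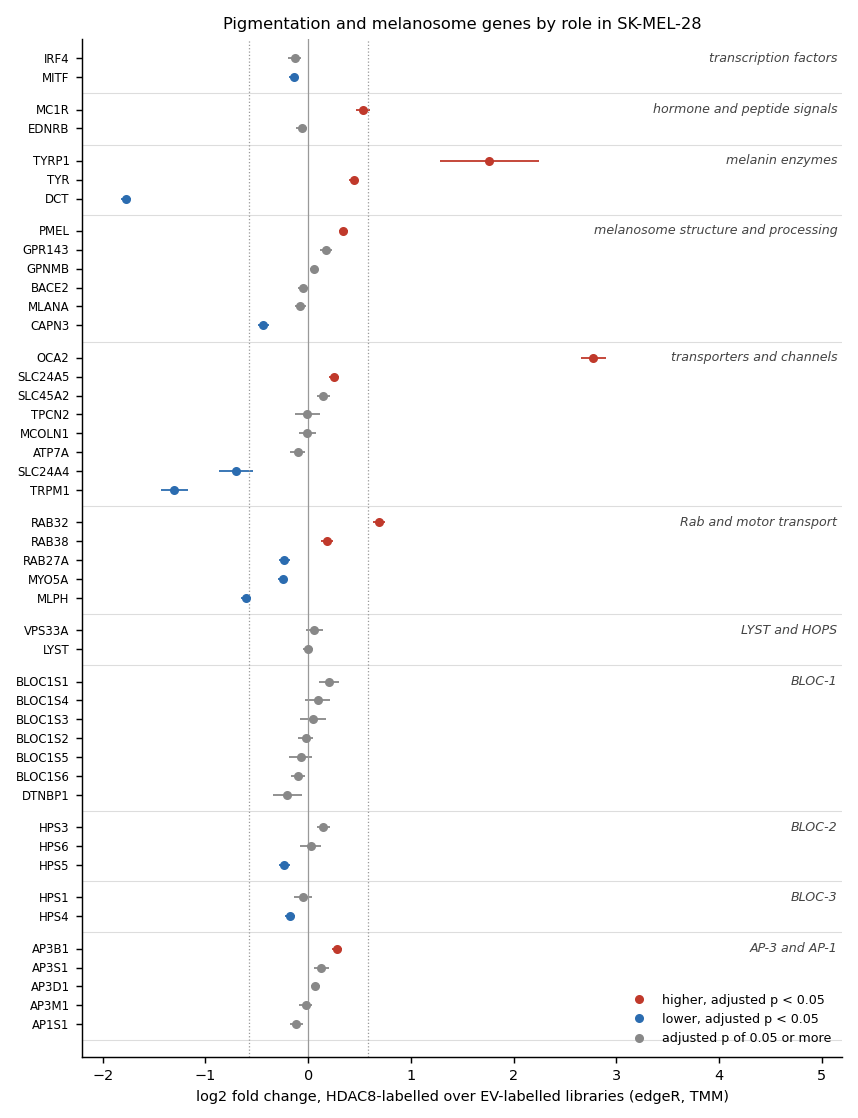
Log2 fold change (horizontal axis, libraries labelled HDAC8 over EV) of the 45 tested pigmentation genes, grouped by role, with bars of 1 standard error and dotted lines at an absolute value of 0.58. OCA2 at 2.78 and DCT at -1.77 lie at the ends, and the 19 genes of LYST, HOPS, BLOC and adaptor complexes lie within 0.28 of 0.

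The 26 genes that encode regulators, enzymes, structural proteins, transporters and Rab or motor proteins included 16 called genes (61.5%, against 22.7% of all tested genes in either direction), and their median absolute log2 fold change was 0.24. The 19 genes of the vesicle-sorting machinery (LYST, the HOPS subunit VPS33A, the BLOC complexes and the adaptor complexes) included 3 called genes (15.8%), with a median absolute log2 fold change of 0.092. Over all 45 genes that median was 0.15, and over all tested genes it was 0.19. These counts describe the list, and the difference between the roles was not tested.

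The pigmentation genes spanned a wide range of levels. Their median level was 69.8 CPM, against 18.8 CPM over all tested genes. Divided by merged exon length, PMEL stood first in the EV libraries with 1130 CPM per kilobase. MITF, TYR and GPNMB followed at 128, 127 and 126 CPM per kilobase, and MLANA at 90.6. Among MITF, TYR and GPNMB, the gaps between neighbours in this order were smaller than the SD between libraries, which was 2.53 for MITF, 2.62 for TYR and 3.03 for GPNMB. With the longest transcript as the length they stood apart, with GPNMB at 269 ± 6.47, MITF at 197 ± 3.91 and TYR at 159.7 ± 3.29 CPM per kilobase (SD, n = 3), so their order rests on the length used. TYRP1 stood last of all 46 genes at 0.102 CPM per kilobase, below the untested ASIP at 0.206. Of the 10 highest genes, 9 were among the 10 highest with either length, and PMEL stood first with either length. All 46 genes together took 1.05%, 1.04% and 1.03% of the counts in the EV libraries and 1.08%, 1.09% and 1.17% in the HDAC8 libraries. PMEL alone made up 40.8%, 39.6% and 40.5% of those counts in the EV libraries and 45.7%, 46.5% and 48.0% in the HDAC8 libraries. Without PMEL, the share of the other genes was 0.622%, 0.627% and 0.613% in the EV libraries and 0.586%, 0.584% and 0.607% in the HDAC8 libraries. The summed share was thus higher in every HDAC8 library with PMEL and lower in every one without it.

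Start-site windows are shown for the 3 melanin enzymes and for OCA2, TRPM1 and MLPH, the other genes past both thresholds whose window held a hexamer that MITF is known to recognise. Each runs from 250 bases before the start site to 50 bases after it in RefSeq (GRCh38.p14), read 5′ to 3′ along the gene, and capitals mark the hexamer CATGTG, which reads CACATG when on the other strand, or the hexamer CACGTG. Where a gene had several windows, the one nearest the canonical start was taken, as for TRPM1, DCT and MLPH.
TYR, chr11:89177625-89177924, plus strand: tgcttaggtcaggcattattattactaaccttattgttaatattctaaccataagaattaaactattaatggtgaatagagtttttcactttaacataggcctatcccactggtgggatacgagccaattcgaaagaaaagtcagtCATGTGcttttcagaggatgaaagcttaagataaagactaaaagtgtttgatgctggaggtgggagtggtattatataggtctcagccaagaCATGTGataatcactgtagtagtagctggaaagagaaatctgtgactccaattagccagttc
TYRP1, chr9:12693135-12693434, plus strand: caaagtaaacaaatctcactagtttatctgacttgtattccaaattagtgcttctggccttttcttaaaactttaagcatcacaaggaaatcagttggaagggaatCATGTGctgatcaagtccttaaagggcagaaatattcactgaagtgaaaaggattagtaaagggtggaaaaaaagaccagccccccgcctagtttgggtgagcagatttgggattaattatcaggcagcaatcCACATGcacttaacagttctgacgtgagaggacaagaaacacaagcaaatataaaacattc
DCT, chr13:94479633-94479932, minus strand: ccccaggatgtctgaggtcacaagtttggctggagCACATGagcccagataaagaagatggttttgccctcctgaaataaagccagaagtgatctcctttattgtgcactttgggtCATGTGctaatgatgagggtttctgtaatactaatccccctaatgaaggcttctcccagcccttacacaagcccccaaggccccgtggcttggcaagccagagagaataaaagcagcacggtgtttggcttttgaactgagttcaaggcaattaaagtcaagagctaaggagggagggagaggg
OCA2, chr15:28099266-28099565, minus strand: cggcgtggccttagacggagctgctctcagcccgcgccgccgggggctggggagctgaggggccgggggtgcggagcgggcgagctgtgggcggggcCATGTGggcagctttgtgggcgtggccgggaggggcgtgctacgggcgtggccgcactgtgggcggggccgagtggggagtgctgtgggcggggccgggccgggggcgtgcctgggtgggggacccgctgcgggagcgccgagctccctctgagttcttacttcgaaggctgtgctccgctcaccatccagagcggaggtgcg
TRPM1, chr15:31101676-31101975, minus strand: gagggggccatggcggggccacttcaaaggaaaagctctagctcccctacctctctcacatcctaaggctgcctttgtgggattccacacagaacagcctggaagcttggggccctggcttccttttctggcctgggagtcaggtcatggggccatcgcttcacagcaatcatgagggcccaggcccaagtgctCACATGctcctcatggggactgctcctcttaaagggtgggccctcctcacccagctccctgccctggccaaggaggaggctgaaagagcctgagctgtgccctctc
MLPH, chr2:237487001-237487300, plus strand: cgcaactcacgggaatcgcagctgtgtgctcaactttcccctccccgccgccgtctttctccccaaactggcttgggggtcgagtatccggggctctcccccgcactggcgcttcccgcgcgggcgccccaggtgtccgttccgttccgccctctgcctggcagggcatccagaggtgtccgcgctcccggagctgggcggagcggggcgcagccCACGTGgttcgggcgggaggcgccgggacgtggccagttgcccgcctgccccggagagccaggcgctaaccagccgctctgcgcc
Counted back from the start site at the first base of each hexamer, the hits lay at -104 and -12 in TYR, at -144 and -11 in TYRP1, and at -215 and -134 in DCT. OCA2 held 1 at -153, TRPM1 held 1 at -56 and MLPH held 1, CACGTG, at -35. The windows of the melanin enzymes held 2 hits each. TYR and TYRP1 were higher and DCT was lower, and a link between hits and direction was not tested. RefSeq windows were matched for 37 of the 46 genes, and 17 of them (45.9%) held either hexamer, against 17.6% of all 35116 windows of the same length. The full set of windows holds several for some genes, while each matched pigmentation gene entered once. CATGTG was in 11 of the 37 windows (11.1% of all windows) and CACGTG in 7 (7.26% of all windows), with BLOC1S3 holding both. Among genes with a window, hits were present in 5 of 6 higher, 4 of 10 lower and 8 of 20 uncalled genes. PMEL, RAB38 and AP3B1, which were also called higher, had no window. RAB32 and SLC24A4, the remaining genes past both thresholds, held neither hexamer in the window. Windows of 34 of the 37 genes were at the canonical start, while those of MYO5A, SLC24A4 and RAB27A lay 170, 584 and 18891 bases from it. These 3 are among the lower genes and held neither hexamer, so that 4 of 7 lower genes with a window at the canonical start held a hit. MITF, CAPN3 and HPS4, lower without a hit, had 3, 3 and 4 windows, of which only the nearest was read. Which start site these cells use was not examined, and it need not be the canonical one.

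MITF, the master regulator of the lineage (chr3:69739456-69968336, GRCh38, GENCODE 44), was at 953, 926 and 963 CPM in the EV libraries and 879, 870.2 and 826 CPM in the HDAC8 libraries. Every HDAC8 library lay below every EV library, by a small margin. MITF had a log2 fold change of -0.14 (SE 0.041, adjusted p = 0.0263), but the adjusted p was 0.0824 in a fit blocked on replicate number, 0.0878 if EV replicate 1 was left out and 0.117 if EV replicate 3 was (range 0.00213 to 0.117 over 11 alternatives). The counts sum all MITF start sites, of which the melanocyte form is 1. IRF4, which acts with MITF on the TYR enhancer, had a log2 fold change of -0.13 and was not called (adjusted p = 0.165).

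The receptors at the cell surface differed from each other. MC1R, the melanocortin receptor that raises cyclic AMP and favours eumelanin (chr16:89912119-89920973), was at 83.5, 82.2 and 93.1 CPM in the EV libraries and 117, 122 and 135 CPM in the HDAC8 libraries. Its groups did not overlap, and the log2 fold change was 0.53 (SE 0.069, adjusted p = 0.000175). MC1R counts are uncertain, because its exons overlap TCF25 and 2 other annotated genes on the same strand and its estimated counts were not whole. EDNRB, the endothelin receptor of the melanocyte lineage, had a log2 fold change of -0.063 and was not called (adjusted p = 0.446).

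The melanin enzymes went in opposite directions. TYR, the rate-limiting tyrosinase (chr11:89177875-89295759), was at 333, 333 and 322 CPM in the EV libraries and 442, 445 and 455 CPM in the HDAC8 libraries. All HDAC8 libraries were higher, by 1.36-fold on average, with a log2 fold change of 0.44 (SE 0.041, adjusted p = 1.12e-05). DCT, the dopachrome tautomerase (chr13:94436811-94479682), was at 246, 228 and 226 CPM in the EV libraries and 66.4, 67.9 and 70.5 CPM in the HDAC8 libraries. It was 3.42-fold lower in the libraries labelled HDAC8 (log2 fold change -1.77, SE 0.053, adjusted p = 1.13e-09), and the gap between the groups was far wider than the spread within either. Per DCT count there were 1.36, 1.46 and 1.42 TYR counts in the EV libraries and 6.65, 6.56 and 6.45 in the HDAC8 libraries. TYRP1, a tyrosinase-related enzyme of eumelanin synthesis (chr9:12685439-12710285), was near the detection limit, with 5, 12 and 9 counts in the EV libraries and 46, 31 and 19 in the HDAC8 libraries. That equals 0.232, 0.542 and 0.366 CPM against 1.56, 1.53 and 0.819 CPM, where 3 counts correspond to 0.101 to 0.144 CPM. TYRP1 had a log2 fold change of 1.76 (SE 0.48, adjusted p = 0.0204), and the groups did not overlap. This call was lost when EV replicate 1, EV replicate 3, HDAC8 replicate 1 or HDAC8 replicate 2 was left out, with adjusted p-values of 0.102, 0.0842, 0.0817 and 0.0861 (range over all alternatives 0.0147 to 0.102). TYRP1 also overlaps LURAP1L-AS1 on the other strand.

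**Figure D2:**
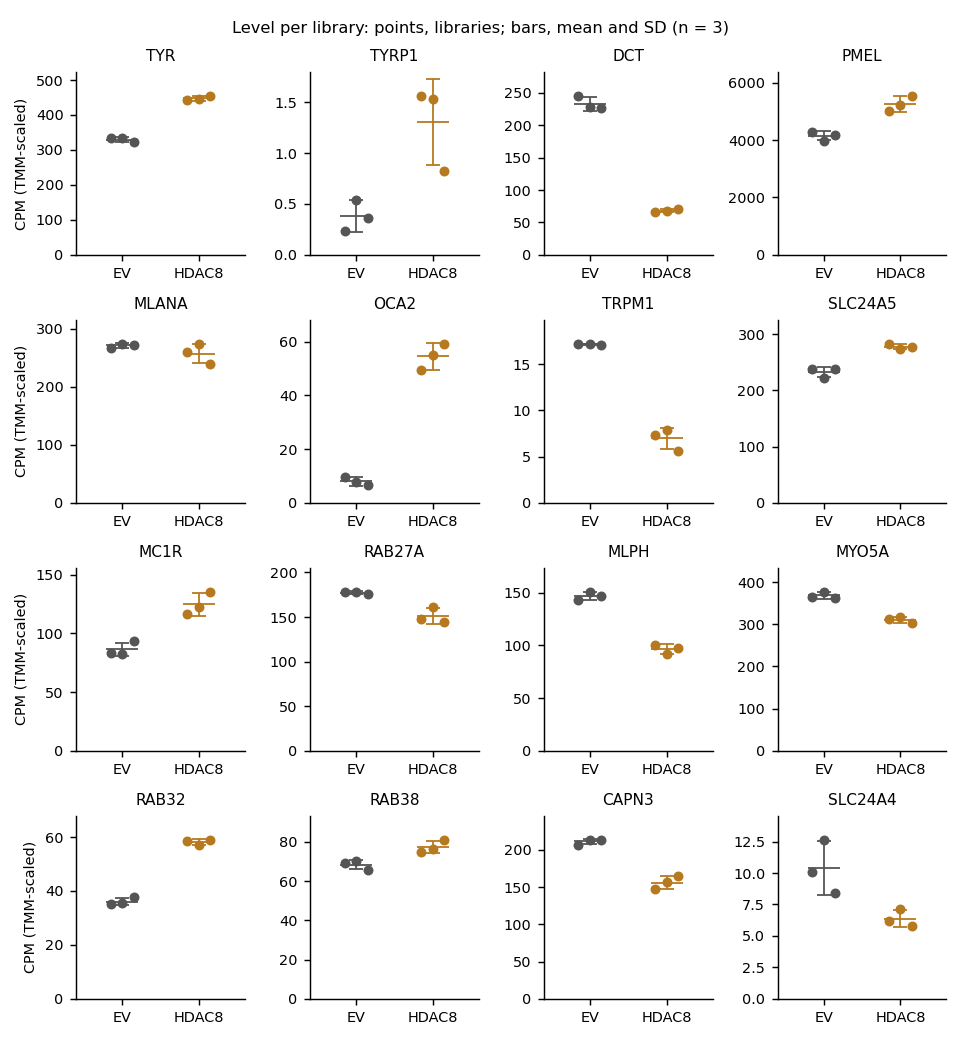
CPM (vertical axes, from 0) of 16 pigmentation genes in the 3 EV and 3 HDAC8-labelled libraries, with each point a library and bars for the mean and SD. DCT lies between 226 and 246 CPM in EV and between 66.4 and 70.5 CPM in HDAC8 libraries, OCA2 shows the opposite order, and the groups overlap for MLANA.

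Among structural and processing genes, PMEL was higher and CAPN3 lower. PMEL, the amyloid scaffold protein (chr12:55954105-55973317), was at 4281, 3983 and 4184 CPM in the EV libraries and 4999, 5222 and 5541 CPM in the HDAC8 libraries. It was higher in all HDAC8 libraries, with a log2 fold change of 0.34 (SE 0.044, adjusted p = 0.000154), and its exons overlap CDK2 on the opposite strand. MLANA, which binds PMEL and aids its processing (chr9:5890889-5910606), was at 267, 274 and 273 CPM in the EV libraries and 259, 273 and 239.8 CPM in the HDAC8 libraries. These groups overlapped, and MLANA was not called (log2 fold change -0.077, SE 0.052, adjusted p = 0.340). CAPN3, a calpain protease whose gene is expressed in melanocytes as well as muscle (chr15:42359498-42412949), was at 207, 214 and 213 CPM in the EV libraries and 147, 156 and 165 CPM in the HDAC8 libraries. CAPN3 was lower without overlap, with a log2 fold change of -0.44 (SE 0.052, adjusted p = 8.83e-05). Its counts were not whole, and it overlaps ENSG00000258461 on the same strand and ZNF106 on the other. The glycoprotein GPNMB, the PMEL-cleaving protease BACE2 and the melanosomal receptor GPR143 were not called, with log2 fold changes of 0.057, -0.046 and 0.17. GPR143 lay above all EV libraries in every HDAC8 library, with an adjusted p of 0.0510, and was called under 3 of 11 alternatives.

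Ion transporters and channels held the largest change of the list. OCA2, which contributes a chloride conductance that raises melanosomal pH (chr15:27754875-28099315), was at 9.66, 7.73 and 6.59 CPM in the EV libraries and 49.4, 55.0 and 59.2 CPM in the HDAC8 libraries. In counts, this was 208, 171 and 162 against 1455, 1115 and 1374. OCA2 was 6.84-fold higher, with a log2 fold change of 2.78 (SE 0.12, adjusted p = 2.17e-08), and no library came near the other group. Per kilobase, OCA2 stood at rank 40 of 46 in the EV libraries, with 2.45 CPM per kilobase, and reached 16.8 CPM per kilobase in the HDAC8 libraries. TRPM1, a cation channel whose gene hosts the microRNA miR-211 (chr15:31001065-31161160), was at 17.2, 17.2 and 17.1 CPM in the EV libraries and 7.37, 7.90 and 5.65 CPM in the HDAC8 libraries. It was 2.47-fold lower (log2 fold change -1.30, SE 0.13, adjusted p = 2.23e-05), and the EV libraries were nearly equal. The microRNA itself was not measured by these counts.

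The sodium, potassium and calcium exchangers SLC24A5 and SLC24A4 went in opposite directions. SLC24A5, the melanosomal exchanger tied to skin colour (chr15:48120990-48142672), was at 239, 223 and 238 CPM in the EV libraries and 283, 274 and 276 CPM in the HDAC8 libraries. Its log2 fold change was 0.25 (SE 0.046, adjusted p = 0.00188), and its exons overlap MYEF2 on the other strand. SLC24A4, tied to hair and eye colour (chr14:92322581-92501481), was at 10.1, 12.7 and 8.42 CPM in the EV libraries and 6.21, 7.11 and 5.82 CPM in the HDAC8 libraries. SLC24A4 was lower in all HDAC8 libraries, with a log2 fold change of -0.70 (SE 0.17, adjusted p = 0.0106), and its adjusted p was 0.0538 without EV replicate 2 (range over the alternatives 0.000378 to 0.0538). The sugar and proton transporter SLC45A2, the lysosomal channels MCOLN1 and TPCN2 and the copper pump ATP7A were not called, with log2 fold changes between -0.10 and 0.15.

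All 5 genes of Rab and motor transport were called, 2 higher and 3 lower, against 22.7% of all tested genes in either direction. MLPH, the linker between RAB27A and the motor (chr2:237485428-237555322), was at 143, 151 and 147 CPM in the EV libraries and 101, 91.5 and 97.3 CPM in the HDAC8 libraries. MLPH was lower by 1.52-fold, with a log2 fold change of -0.61 (SE 0.053, adjusted p = 6.71e-06). RAB27A, the GTPase on mature melanosomes, had a log2 fold change of -0.23 (adjusted p = 0.00692), and MYO5A, the actin motor, had one of -0.25 (adjusted p = 0.00116). All 3 genes of the tethering complex were thus lower, each without overlap between the groups. RAB27A counts were not whole, and its exons overlap PIGBOS1 on the same strand and PIGB on the other. MLPH exons overlap ENSG00000289261 on the other strand. RAB32, which directs cargo to the immature melanosome (chr6:146543833-146554953), was at 35.2, 35.4 and 37.6 CPM in the EV libraries and 58.6, 57.0 and 59.0 CPM in the HDAC8 libraries. It was 1.61-fold higher, with a log2 fold change of 0.69 (SE 0.061, adjusted p = 7.82e-06). RAB38, its close relative, had a log2 fold change of 0.18 (adjusted p = 0.0451), and this call was lost under 9 of 11 alternatives, including the block on replicate number and each library left out (adjusted p up to 0.189). For each RAB27A count there were 0.197, 0.199 and 0.214 RAB32 counts in the EV libraries and 0.396, 0.353 and 0.410 in the HDAC8 libraries.

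The vesicle-sorting machinery differed less. None of the 7 BLOC-1 genes was called, with log2 fold changes from -0.20 for DTNBP1 to 0.21 for BLOC1S1. In BLOC-2, HPS5 was lower (log2 fold change -0.23, adjusted p = 0.0117, 0.0554 without EV replicate 1 and 0.00613 to 0.0554 over the alternatives), while HPS3 and HPS6 were not called, with 0.15 and 0.023. In BLOC-3, the exchange factor for RAB32 and RAB38, HPS4 was lower (log2 fold change -0.18, adjusted p = 0.0172) and HPS1 was not called, with -0.051. The HPS4 call was lost in the fit blocked on replicate number (adjusted p = 0.0528) and on leaving out EV replicate 1, EV replicate 2 or HDAC8 replicate 2 (0.0788, 0.0579 and 0.0655), with a range of 0.00146 to 0.0788 over the alternatives. AP3B1, the large beta subunit of the adaptor AP-3, was at 96.7, 88.8 and 94.3 CPM in the EV libraries and 113, 114 and 112.5 CPM in the HDAC8 libraries. AP3B1 was higher without overlap (log2 fold change 0.28, adjusted p = 0.00212), and its partners AP3D1, AP3M1 and AP3S1, with AP1S1 of the adaptor AP-1, were not called, between -0.12 and 0.13. LYST, the giant protein lost in Chediak-Higashi syndrome, had a log2 fold change of -0.001, and VPS33A had one of 0.061. Of the 26 uncalled genes, 6 had groups without overlap, and none had an absolute log2 fold change above 0.21 or a standard error above 0.14.

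**Figure D3:**
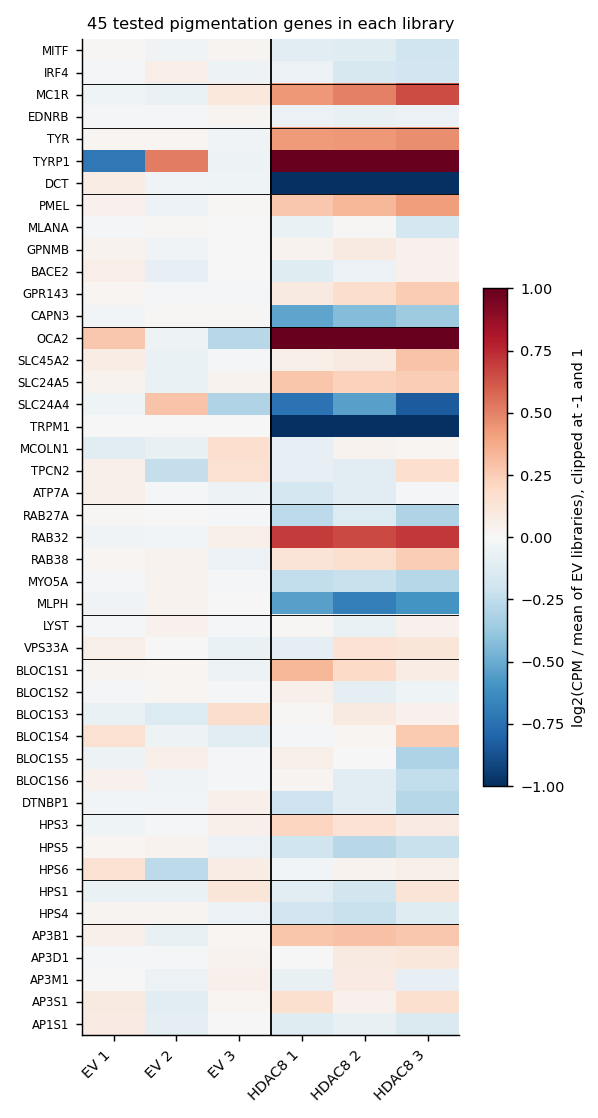
Level of the 45 tested genes (rows, by role) in each of the 6 libraries (columns), as log2 of CPM over the mean of the EV libraries, with colour limited to -1 and 1. The HDAC8-labelled libraries are alike in TYR, DCT, OCA2, RAB32 and MLPH, and the EV libraries differ most in TYRP1, where they held 5 to 12 counts. Relative to its mean, TRPM1 varied more in the HDAC8-labelled libraries, from 5.65 to 7.90 CPM.

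Neighbouring genes were compared as a description of position. For each tested pigmentation gene, the median log2 fold change of the 50 nearest tested genes with at least 10 CPM on the same chromosome lay between -0.25 and 0.19. These windows were wide, with that of DCT at chr13:75620434-113323672 and that of OCA2 at chr15:20431093-40664342. The windows of DCT and EDNRB overlapped, as did those of OCA2 and TRPM1, so their medians are not independent. DCT had the lowest neighbour median, -0.254, and lay 1.52 below it on the log2 scale. EDNRB, which is also on chromosome 13, had a neighbour median of -0.246 and was itself at -0.063. Medians around OCA2 and TRPM1, both on chromosome 15, were 0.068 and 0.073, although the genes went in opposite directions. RAB32 had a neighbour median of 0.15 and MLPH one of 0.004. In the MLPH window 52% of the values were positive. RAB17, which lies close to MLPH in that window (chr2:237574322-237601614), was lower as well, at -0.47 (adjusted p = 0.000139).

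**Figure D4:**
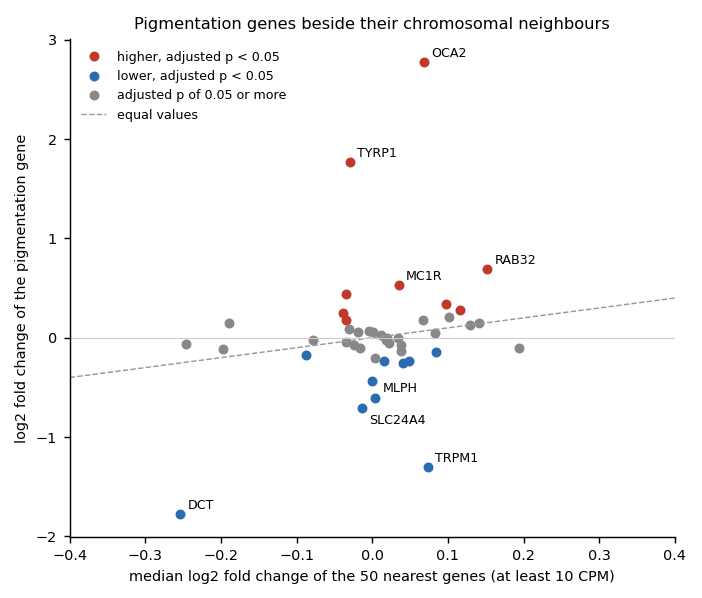
Log2 fold change of each tested pigmentation gene (vertical axis) against the median of its 50 nearest genes with at least 10 CPM (horizontal axis), with a dashed line at equal values. The neighbour medians stay between -0.25 and 0.19, while OCA2 at 2.78 and DCT at -1.77 lie far from the line.

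Other genes of the pathway, 70 genes outside the list of 46, were examined by role, and 65 of them were tested. In all, 11 were higher (16.9%, against 11.1% of all tested genes) and 15 were lower (23.1%, against 11.7%), with a median log2 fold change of 0.010. Among 12 tested MITF relatives and melanocyte regulators, 5 were higher (41.7%) and 1 was lower (8.33%, below the share of all genes). LEF1, a nuclear partner of beta-catenin, had a log2 fold change of 0.66 (adjusted p = 2.36e-06), the KIT ligand KITLG 0.64 (adjusted p = 0.0027) and SOX9 0.26 (adjusted p = 0.0141). TFAP2A, a factor that shares targets with MITF, was the lower one, at -0.34 (adjusted p = 0.00475). The MITF activator SOX10 was at 0.23 (adjusted p = 0.00463).

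Of 13 tested MITF targets outside pigmentation, 4 were higher (30.8%, background 11.1%) and 5 were lower (38.5%, background 11.7%). HIF1A, TBX2 and BIRC7 had the highest log2 fold changes among those called, at 0.35, 0.27 and 0.21. The remaining higher gene, CDK2 at 0.145 (adjusted p = 0.0205), overlaps exons of PMEL on the other strand, so its counts are uncertain. ACP5, a phosphatase, was lowest at -1.02 (adjusted p = 2.87e-06), followed by the survival factor BCL2A1 at -0.92 and the receptor MET at -0.58.

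Of 29 other genes of melanosome trafficking, 1 was higher and 6 were lower. The higher one was ANKRD27, which binds RAB32 and RAB38, at 0.31 (adjusted p = 0.00277). The higher and lower genes are 3.45% and 20.7% of the list, against 11.1% and 11.7% of all tested genes. The lowest were RAB17 at -0.47, the adaptor subunit AP1S2 at -0.33 and the syntaxin STX3 at -0.31. Of 11 tested other melanosome proteins and pigment transporters, 1 was higher (9.09%) and 3 were lower (27.3%). MFSD12, a cysteine transporter of melanosomes, was the higher one at 0.81 (adjusted p = 1.14e-06), and the cystine transporter SLC7A11 was the lowest at -0.70 (adjusted p = 1.57e-06). The tetraspanin TSPAN10 was at -0.58 and the membrane protein LAMP1 at -0.30.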

How the data were processed

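RNA-seq of SK-MEL-28 cells was analysed in 3 libraries labelled EV and 3 labelled HDAC8, mapped by their titles. For each Ensembl gene the authors deposited an estimated count, made with Trimmomatic, STAR and RSEM on GRCh38 per the labels, without normalization. RSEM divides reads shared between genes, so 12 of the 46 pigmentation genes had counts that were not whole. Counts were rounded. Exons of 13 genes overlap another gene on the same strand and 17 on the other, and the sources used here do not state whether counting used strand. The labels and the paper's Methods name different RNA and library kits. A second deposited table of the authors' own fold changes and p-values was not used.

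Genes passing filterByExpr (16195) were tested in R 4.3.3 with edgeR 4.0.16 (TMM, glmQLFit, glmQLFTest, no block), with Benjamini-Hochberg adjustment over all of them and thresholds of 0.05 and, where stated, a log2 fold change of 0.58 in either direction. The SE is the size of the log2 fold change over the square root of F. CPM used TMM library sizes, and levels of different genes were divided by merged exon length (GENCODE 44). Library totals set a floor of 3 counts at 0.101 to 0.144 CPM, which covers counting error only. Values per library, standard error and adjusted p are given for MITF, TYR, TYRP1, DCT, PMEL, MLANA and each other called gene whose log2 fold change was 0.3 or more in size, and for SLC24A5 and AP3B1, which were added after their values were seen. In the other pathway lists, at most the 3 highest and 3 lowest called genes with at least 1 CPM are named. SOX10 and CDK2 were added after their values were seen. The genes and lists were chosen with earlier results of these data known.

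Same-numbered libraries correlated at -0.057, -0.125 and -0.0508 over 14150 genes after removal of group means, so the numbers do not pair them. Replicates differed by more than sampling noise. Scripts were tested on simulated counts. Alternatives were DESeq2 1.42.0, upper-quartile normalization, no filter, at least 10 counts in every library, a replicate block, each library left out, and a log2 fold change of 1.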

Additional observations from a re-analysis of the deposited data

How the results depend on the processing

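Of 19 called pigmentation genes, 13 kept their call under all 11 alternatives, 6 lost it under at least 1 (MITF, TYRP1, SLC24A4, RAB38, HPS5 and HPS4), GPR143 was the only gene gained, and none was called in the opposite direction. With the replicate block, 8 genes were higher and 8 lower, 3 and 4 past the fold threshold, and the median log2 fold change was -0.005. The pairing rests on label numbers alone, and no EV library correlated best with the HDAC8 library of its own number. At a log2 fold change of 1, the lower genes past both thresholds were 2 in place of 4, as fewer genes reach that fold. With each library left out in turn, there were 7 to 8 higher and 7 to 10 lower genes, of which 2 to 3 and 3 to 4 passed the fold threshold. The median of the tested genes lay between -0.049 (EV replicate 2 left out) and 0.014 (EV replicate 3 left out); the cause was not tested. TYRP1 was not testable with at least 10 counts in every library. Depth limits TYRP1 and ASIP, which had at most 46 and 5 counts in a library.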
